A study of Mus musculus with 30 samples.

Results

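Respiratory complexes II to V pass electrons from succinate and ubiquinol to oxygen and make ATP, and 41 of the 6028 genes named on the tested probes of these arrays belonged to them by a rule on gene symbols. The rule took every probe whose platform symbol began with *Sdh* (*Sdha* to *Sdhd*), *Uqcr*, *Cox* followed by a digit, *Cyc1* or *Atp5*, and left out *Cox7a1*, *Cox7a2*, *Cox6a1*, *Cox6a2*, *Cox8a* and *Cox8b*. It found 42 probes, and the probe with the highest mean signal stood for each gene. Complex II had 3 of these genes, complex III 7, complex IV 16 and complex V 15. By role, 32 encode subunits, 8 encode cytochrome oxidase assembly factors and 1, *Cox7a2l*, encodes a protein that joins complexes III and IV into supercomplexes. Gene expression in cardiac ventricle was measured on 30 MouseWG-6 BeadChip arrays, 3 for each of 10 groups. The groups were control mice (genotype MCK-Cre) and Sox6 KO mice (genotype Sox6loxp/loxp; MCK-Cre), each at P1, P7, P14, P30 and P60 (postnatal days 1 to 60). All mice were of an FVB/B6 hybrid strain and carried the MCK-Cre transgene, in which the muscle creatine kinase promoter drives Cre recombinase in heart and skeletal muscle, and the study's methods describe them as male. *Sox6* itself was not among the named genes, so its deletion was not checked here. The study reports lower *Sox6* mRNA in the KO hearts by RT-qPCR. Cre driven by this promoter leaves *Sox6* in place in cells other than muscle.

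Complex II (succinate dehydrogenase) also serves the TCA cycle, complex III carries electrons from ubiquinol to cytochrome c, and complex IV (cytochrome c oxidase) hands them to oxygen. Complexes III and IV pump protons across the inner mitochondrial membrane, and complex V (ATP synthase) uses the returning protons to make ATP. The heart draws most of its ATP from this route, and it turns from glycolysis to oxidation of fatty acids after birth. The genes described here lie in the nucleus, and the subunits encoded by mitochondrial DNA were not analysed.

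All 41 genes were above background on all 30 arrays, with mean log2 signals from 7.38 to 15.56. This followed largely from the naming, since only probes of the authors' filtered table had names and that table left out probes missing at an age. Of the 17997 probes tested, 10820 were above background on all 30 arrays. Values are log2 of the quantile normalized signal, so that a difference of 1 is a doubling, and since a probe's signal also reflects its own sequence, levels were compared between samples and not between genes. Genes were called changed at an adjusted p under 0.05 in limma, adjusted over all 17997 probes tested. Arrays of a group correlated at 0.983 to 0.996, and the lowest value belonged to the control P1 arrays, where replicate 1 stood apart. Of 8 ventricular cardiomyocyte markers 7 were measured, and their summed log2 signal stayed between 17.46 and 17.88 on all arrays. Quantile normalization limits how far a sum of such bright probes can move, so the sum does not show a constant share of cardiomyocytes. From P1 to P60 in the control 2 of the 7 were higher and 1 lower at an unadjusted p under 0.05 (limma). Ventricle tissue is a mixture of cells, and fewer cells of a type cannot be told apart from less RNA per cell in these data.

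Promoter windows from RefSeq (build GRCm38.p6, 250 bases before to 50 after each start) matched 30 of the 41 genes by gene identifier. These windows are shown for *Atp5g2*, the gene that differed between the genotypes at all ages. They are also shown for *Uqcrc1* and *Cox14*, which had the highest rises with age in the KO, and for *Cox6b1*. *Cox6b1* was 1 of 4 genes whose change with age differed between the genotypes. The others were *Uqcrc1*, *Atp5d* and *Cox11*, and the windows of *Atp5d* and *Cox11* are not shown. Capitals mark the palindromic consensus of NRF-1, a regulator of mitochondrial genes, or the letters CCGGAAG (bound by ETS factors such as GABP) or AACAAT (bound by SOX factors), searched on both strands.
Atp5g2 promoter (chr15:102670998-102671297, minus strand): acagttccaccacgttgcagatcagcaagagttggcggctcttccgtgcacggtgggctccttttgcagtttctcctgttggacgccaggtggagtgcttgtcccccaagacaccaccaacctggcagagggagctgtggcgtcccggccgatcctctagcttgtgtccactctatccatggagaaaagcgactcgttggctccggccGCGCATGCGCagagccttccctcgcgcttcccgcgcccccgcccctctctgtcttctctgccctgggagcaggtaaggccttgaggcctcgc
Uqcrc1 promoter (chr9:108936398-108936697, plus strand): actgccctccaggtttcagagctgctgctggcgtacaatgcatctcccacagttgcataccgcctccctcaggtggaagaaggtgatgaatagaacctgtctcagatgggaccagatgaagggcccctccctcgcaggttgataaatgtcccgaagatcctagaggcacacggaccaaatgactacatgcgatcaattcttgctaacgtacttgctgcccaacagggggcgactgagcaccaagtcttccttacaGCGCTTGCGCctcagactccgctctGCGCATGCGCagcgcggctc
Cox14 promoter (chr15:99725368-99725667, plus strand): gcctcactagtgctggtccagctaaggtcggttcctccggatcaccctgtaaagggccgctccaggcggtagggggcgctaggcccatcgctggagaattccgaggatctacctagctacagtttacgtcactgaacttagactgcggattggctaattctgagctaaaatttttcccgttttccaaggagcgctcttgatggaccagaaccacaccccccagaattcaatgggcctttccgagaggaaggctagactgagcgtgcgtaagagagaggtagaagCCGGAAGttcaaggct
Cox6b1 promoter (chr7:30626065-30626364, minus strand): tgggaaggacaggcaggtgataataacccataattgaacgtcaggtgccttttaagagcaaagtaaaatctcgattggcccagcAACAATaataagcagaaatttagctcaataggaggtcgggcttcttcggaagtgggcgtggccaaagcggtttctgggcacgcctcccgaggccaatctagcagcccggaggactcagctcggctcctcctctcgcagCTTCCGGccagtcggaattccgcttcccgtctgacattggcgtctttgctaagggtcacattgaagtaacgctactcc
The capitals are an NRF-1 match in *Atp5g2*, a pair of NRF-1 matches in *Uqcrc1*, an ETS match in *Cox14*, and a SOX match followed by an ETS match in *Cox6b1*. NRF-1 letters stood in 7 of the 33 windows of these genes (21.2%) and in 4.60% of all 32851 windows, and ETS letters in 14 (42.4%) and 8.86%. YY1 letters (AAGATGGC) stood in 5 (15.2%, against 2.75% of all windows) and ERR letters (TCAAGGTCA) in 2 (6.06%, against 0.423%). The SOX letters stood in 1 window (3.03%), that of *Cox6b1*, and in 10.7% of all windows. The windows of *Atp5d* and *Cox11* held none of the letters searched. A match describes the letters in the window and not a bound site.

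Between P1 and P60 of the control ventricle more of these genes rose than fell. Of 41 genes 18 were higher and 4 lower at P60, where 27.6% of all probes tested were higher and 27.2% lower. The rises were led by genes of all 4 complexes, with the cytochrome oxidase assembly factors *Cox14* and *Cox17*, the ATP synthase subunits *Atp5e* and *Atp5j*, the complex III core protein *Uqcrc1* and the complex II anchor *Sdhc* between 1.57-fold and 1.87-fold. At 1.5-fold and an adjusted p under 0.01 there were 7 higher and 1 lower, with 10.5% and 10.2% of all probes. The median log2 change over the 41 genes was 0.15, and over all probes it was -0.01. Scaling the arrays to a common median in place of quantile normalization gave 14 higher and 10 lower, and the processed values of the authors 14 higher and 6 lower. Under median scaling the median log2 change was 0.060 over the 41 genes and 0.15 over all probes. The 41 genes thus lay above the median of all probes under quantile normalization and below it under median scaling.

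**Figure D1:**
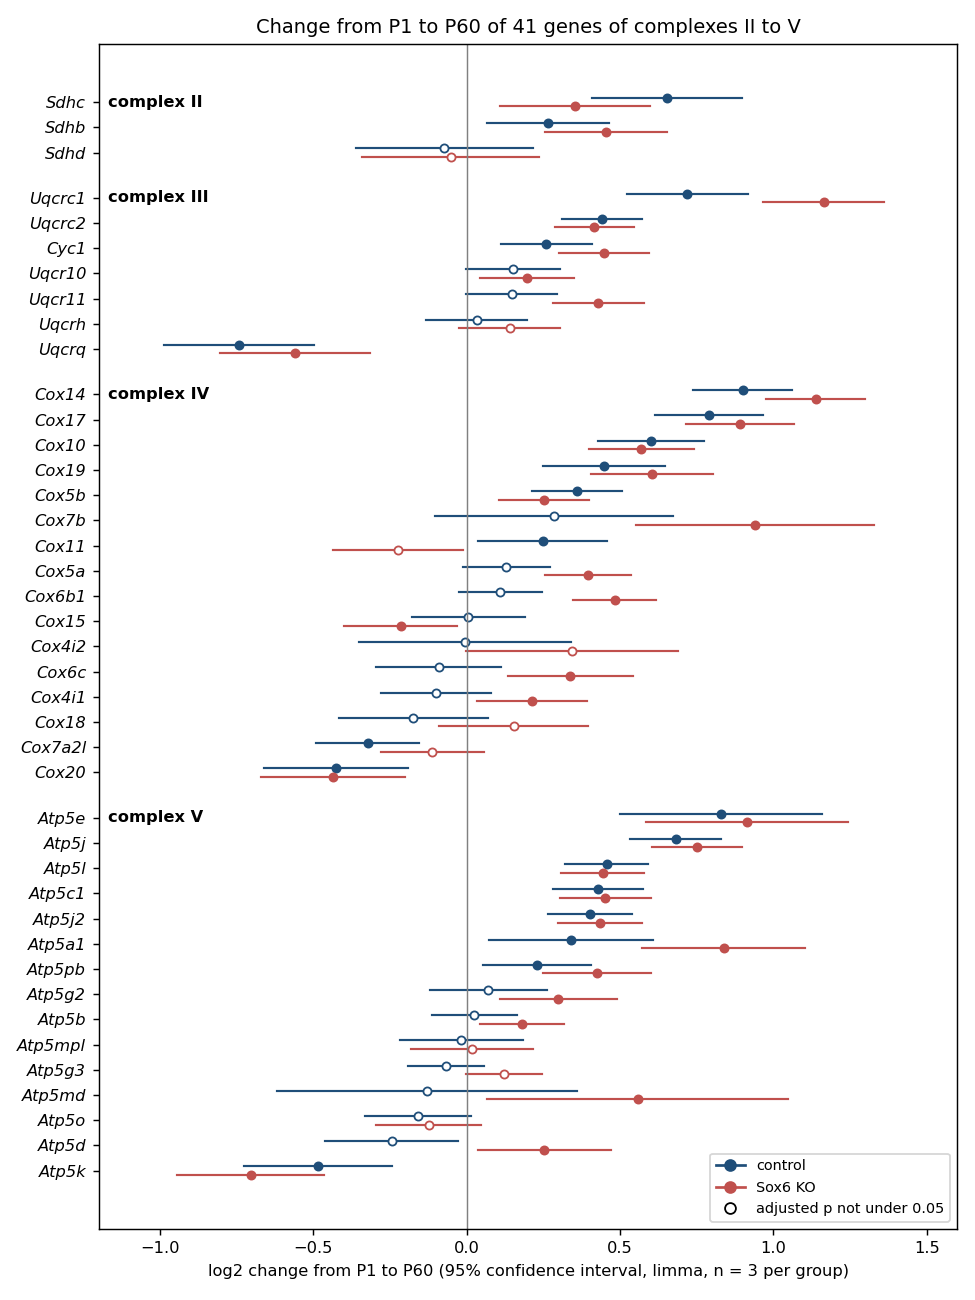
Log2 change from P1 to P60 (horizontal axis) of each of the 41 genes, grouped by complex, in control (blue) and Sox6 KO (red) ventricle, with the limma estimate and its 95% confidence interval from 3 arrays per group. Filled points passed an adjusted p under 0.05: 18 higher and 4 lower in the control, 28 higher and 4 lower in the KO.

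The complex II genes did not share one course. *Sdhc*, a membrane anchor, read 13.38, 12.74 and 12.91 on the control P1 arrays and 13.75, 13.68 and 13.55 at P60. Every P60 array was above every P1 array, and the log2 change was 0.65 (95% confidence interval 0.41 to 0.90, adjusted p = 3.79e-05). *Sdhb*, the iron-sulfur subunit, read 12.58, 13.09 and 12.99 at P1 and 13.004, 13.207 and 13.236 at P60. The P1 and P60 arrays overlapped, its change of 0.27 (adjusted p = 0.0221) turned to -0.023 under median scaling, and without control P1 replicate 1 it was 0.11 (adjusted p = 0.291). It also lost its call without control P60 replicate 2 or control P60 replicate 3. *Sdhd*, the other anchor, was highest at P7, with 10.53, 10.34 and 10.42 at P1, 10.90, 11.02 and 11.11 at P7 and 10.69, 9.97 and 10.40 at P60. Its step from P1 to P7 was 0.58 (adjusted p = 0.00286), and it did not pass from P1 to P60 (-0.07).

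In complex III, 3 of 7 genes were higher at P60 and 1 was lower. *Uqcrc1*, a core protein, rose from 12.83, 13.35 and 13.08 at P1 to 13.81, 13.87 and 13.74 at P60 in the control. These arrays did not overlap, and the log2 change was 0.72 (0.52 to 0.92, adjusted p = 3.47e-07). *Uqcrc2*, the other core protein, rose by 0.44 and *Cyc1*, which holds the heme of cytochrome c1, by 0.26, which was 0.00099 under median scaling (adjusted p = 0.992). *Uqcrq*, a small subunit near the ubiquinone site, went the other way, from 8.64, 8.54 and 8.38 to 7.70, 7.96 and 7.68. No P60 array reached the P1 range, and it fell by 0.74 (-0.99 to -0.50, adjusted p = 6.06e-06). The *Uqcrq* probe was dim, at 1.11 times the background limit on its lowest array. *Uqcr10*, *Uqcr11* and *Uqcrh* did not pass, with log2 changes of 0.15, 0.15 and 0.03.

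In the control, *Cox5b* was the 1 subunit of complex IV that rose, beside 5 assembly factors. Of the 8 assembly factors 5 were higher and 1 lower, with a median log2 change of 0.35, and of the 7 subunits 1 was higher and none lower, with a median of 0.11. In the KO over the same ages 6 of the 7 subunits were higher (*Cox4i1*, *Cox5a*, *Cox5b*, *Cox6b1*, *Cox6c* and *Cox7b*), and of the assembly factors 4 were higher and 2 lower. Of all probes 29.9% were higher and 28.6% lower in the KO. The KO rises of *Cox4i1* and *Cox6c* did not pass under median scaling (0.10 and 0.15). Of the subunits only *Cox6b1* passed the test for a change from P1 to P60 that differs between the genotypes. The difference between subunits and assembly factors was not tested. In the control, of these subunits, 1 passed an unadjusted p under 0.05, *Cox5b* again. *Cox14*, needed for making and assembling the Cox1 subunit, read 11.75, 11.80 and 11.86 at P1 and 12.49, 12.71 and 12.90 at P60. *Cox17*, the copper chaperone of the complex, read 12.72, 12.54 and 12.59 at P1 and 13.41, 13.48 and 13.34 at P60. Neither gene's ages overlapped, and the log2 changes were 0.90 for *Cox14* (0.74 to 1.06, adjusted p = 1.60e-10) and 0.79 for *Cox17* (0.61 to 0.96, adjusted p = 8.08e-09).

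*Cox10*, which makes the heme O precursor of heme A, rose from 11.16, 10.82 and 10.84 to 11.53, 11.66 and 11.42. It gained 0.60 (0.43 to 0.77, adjusted p = 6.54e-07) with no overlap, while *Cox15*, which carries heme O on to heme A, changed by 0.0050. *Cox19*, a copper-handling factor, and *Cox11*, which delivers copper to Cox1, rose by 0.45 and 0.25. Under median scaling neither passed (0.15 and 0.053), and *Cox11* did not pass with normexp background correction or in the authors' table either, nor without control P1 replicate 2, control P1 replicate 3, control P60 replicate 1 or control P60 replicate 3 (adjusted p from 0.0699 to 0.141). *Cox20*, a chaperone of the Cox2 subunit, read 11.46, 12.13 and 11.81 at P1 and 11.47, 11.25 and 11.40 at P60. Its P60 range met control P1 replicate 1 but lay below the other arrays, and it fell by 0.43 (adjusted p = 0.00254). The supercomplex gene *Cox7a2l* read 11.62, 11.81 and 11.69 at P1 and 11.48, 11.16 and 11.52 at P60. It fell by 0.32 (adjusted p = 0.00148), with no overlap.

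Of the subunits of complex IV, *Cox5b* rose by 0.36 (0.21 to 0.51, adjusted p = 1.05e-04), from 14.32, 14.41 and 14.29 to 14.66, 14.69 and 14.75. The ubiquitous isoform *Cox4i1* read 14.70, 14.59 and 14.68 at P1 and 14.57, 14.56 and 14.54 at P60, after a high of 14.86, 14.93 and 14.97 at P7. It rose by 0.26 from P1 to P7 (adjusted p = 0.0274) and did not pass from P1 to P60 (-0.10). *Cox4i2*, an isoform best known from lung and low oxygen, read 6.96, 7.75 and 7.34 at P1 and 7.33, 7.21 and 7.47 at P60. It lay at the detection limit (1.04 times the limit on its lowest array), and its age groups overlapped. The cytochrome oxidase isoforms left out by the rule moved further, with *Cox7a1* higher by 1.71 and *Cox6a1* lower by 1.79.

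In ATP synthase 7 of 15 genes were higher at P60 and 1 was lower. *Atp5e*, the epsilon subunit of the F1 head, read 9.32, 9.33 and 9.36 at P1 and 10.39, 9.77 and 10.33 at P60. *Atp5j*, coupling factor 6 of the stalk, read 13.99, 14.06 and 14.11 at P1 and 14.57, 14.86 and 14.78 at P60. Both were higher on every P60 array, by 0.83 (0.50 to 1.16, adjusted p = 7.71e-05) and 0.68 (0.53 to 0.83, adjusted p = 4.96e-09). *Atp5l*, a membrane subunit, read 14.21, 14.09 and 14.28 at P1 and 14.53, 14.74 and 14.69 at P60, without overlap and with a change of 0.46. *Atp5c1* (the gamma subunit), *Atp5j2* and *Atp5pb* (membrane and stalk subunits) and *Atp5a1* (the alpha subunit) rose by 0.43, 0.40, 0.23 and 0.34, and *Atp5pb* turned to -0.029 under median scaling. *Atp5a1* did not pass under median scaling (0.080), with normexp (adjusted p = 0.0504) or in the authors' table (adjusted p = 0.0723), and lost its call without control P1 replicate 1 (0.15, adjusted p = 0.324), control P60 replicate 1 or control P60 replicate 3. *Atp5pb* lost its call without control P1 replicate 1, control P1 replicate 3 or control P60 replicate 1.

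The catalytic subunit and a subunit c gene of ATP synthase were among the brightest probes of the arrays, and their change depended on the scaling. *Atp5b*, the catalytic beta subunit, read 15.60, 15.60 and 15.58 at P1 and 15.69, 15.60 and 15.57 at P60. *Atp5g3*, a gene for the subunit c of the proton ring, read 15.58, 15.58 and 15.63 at P1 and 15.54, 15.53 and 15.53 at P60. Neither passed, with changes of 0.02 and -0.07. Their probes ranked between 1 and 20 (*Atp5b*) and between 2 and 17 (*Atp5g3*) among the 17997 by brightness on the arrays, a range in which quantile normalization gives each rank the same value on every array. Under median scaling both rose, by 0.43 (adjusted p = 4.63e-06) and 0.34 (adjusted p = 7.17e-05). *Atp5g2*, another subunit c gene, did not pass under either scaling (0.07 and -0.16). *Atp5k*, subunit e of the membrane part, fell from 8.16, 8.43 and 8.23 to 7.93, 7.69 and 7.74. No array overlapped and the change was -0.49 (-0.72 to -0.25, adjusted p = 9.05e-04), on a probe that came within 1.31 times the background limit. *Atp5o* had a second, dim probe that fell by 0.36 (adjusted p = 3.04e-04), where its main probe did not pass (-0.16).

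From P1 to P60 in the control, 6 of 17 genes with a mean log2 signal of 14 or more changed, all of them higher. Between 10 and 14 there were 12 of 16 (10 higher and 2 lower), and under 10 there were 4 of 8 (2 higher and 2 lower). Over all probes 27.6% were higher and 27.2% lower, and the shares of all probes at these signal levels were not computed. Markers of other cells moved over the same ages, with 4 of 4 macrophage markers higher (summed log2 signal 10.12 to 10.28 at P1 and 11.67 to 11.73 at P60) and 6 of 6 endothelial markers lower (12.835 to 12.995 and 12.31 to 12.37). The 2 atrial markers measured (of 4) were lower by 2.71 (*Nppa*) and 5.07 (*Myl4*), with a summed level of 14.87 to 16.19 at P1 and 11.56 to 12.71 at P60. The study describes *Nppa* as considered a fetal type gene of the heart, so its fall does not measure atrial cells alone. Of 3 pericyte and smooth muscle markers *Rgs5* was higher by 1.08 and *Acta2* changed by -2.50 (summed 14.31 to 14.63 and 12.22 to 12.45), and 2 of 3 erythroid markers were lower (16.49 to 16.59 and 15.85 to 16.21). Of 2 brown adipocyte markers *Cox8b*, which is also a heart gene, was higher and *Cidea* lower (13.67 to 13.77 and 14.67 to 14.80), and the skeletal muscle marker *Myl1* was higher by 1.34 (11.65 to 12.35 and 13.17 to 13.31). Of 5 fibroblast markers 2 were higher and 2 lower. The part of all these markers in the changes of the respiratory genes was not tested.

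**Figure D2:**
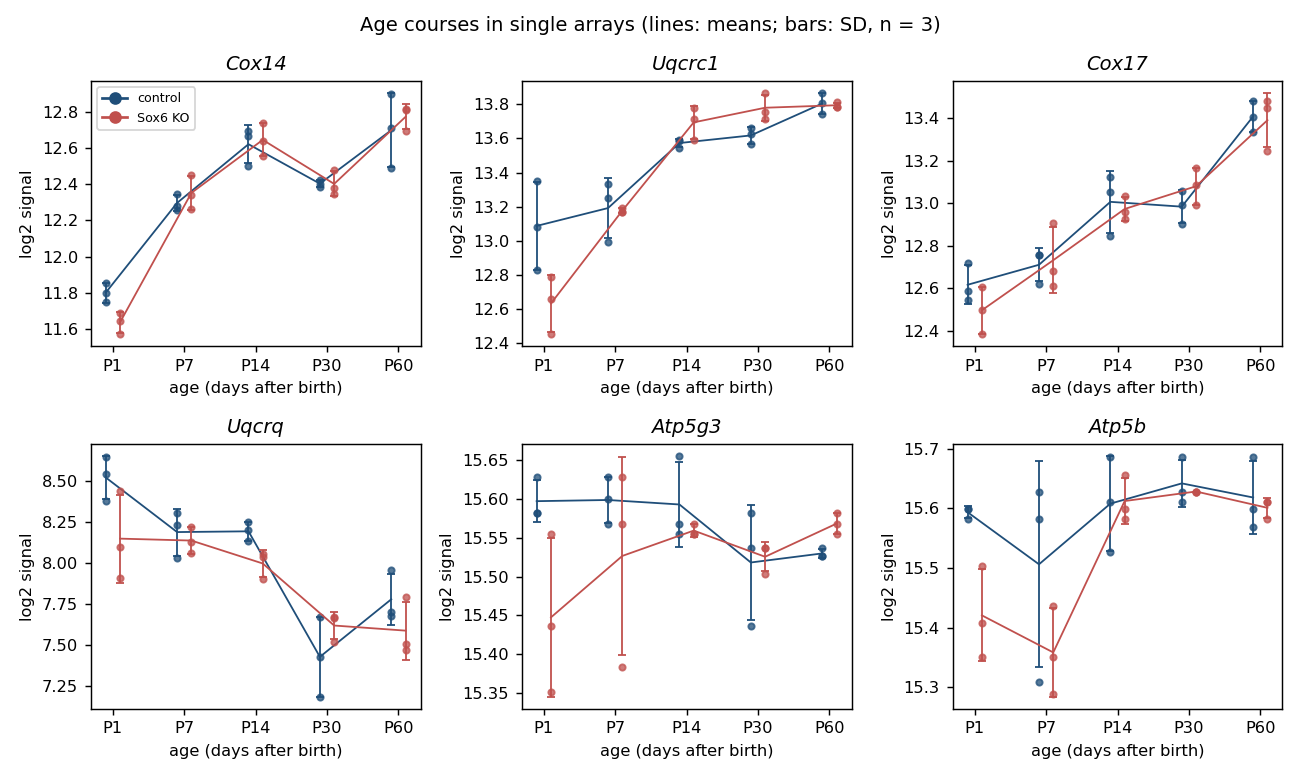
Log2 signal (vertical axis) against age (horizontal axis) of 6 genes in control (blue) and Sox6 KO (red) ventricle, with points for single arrays, lines through the means and bars for the SD (n = 3). In the control *Cox14*, *Uqcrc1* and *Cox17* ended 0.72 to 0.90 above their P1 level, *Uqcrq* ended 0.74 below it, and *Atp5g3* and *Atp5b* ended at -0.07 and 0.02, which became 0.34 and 0.43 under median scaling.

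Over the control ages as a whole, 31 of 41 genes changed in the F test, with 69.6% of all probes. Step by step, 11 genes were higher and 4 lower at P7 than at P1 (12.1% and 12.5% of all probes), and 9 higher and 1 lower at P14 than at P7 (9.53% and 9.91%). From P14 to P30 there were 2 higher and 6 lower (16.2% and 16.1%), and from P30 to P60 there were 8 higher and 5 lower (11% and 10.1%). The split of these steps depended on the scaling. Median scaling gave 4 higher and 7 lower for P1 to P7, 6 and 4 for P7 to P14, 11 and 3 for P14 to P30, and 3 and 5 for P30 to P60, and the authors' table gave 2 and 3 for P14 to P30. Single arrays moved some counts by over 1.5 times. The P1 to P7 count of 15 became 9 without control P1 replicate 2, and the P14 to P30 count of 8 became 5 without control P14 replicate 2, control P14 replicate 3 or control P30 replicate 3. The P30 to P60 count of 13 became 7, 5 and 6 without control P30 replicate 3, control P60 replicate 2 and control P60 replicate 3.

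*Atp5e* made the highest step from P1 to P7, from 9.32, 9.33 and 9.36 to 9.77, 10.04 and 10.01, a change of 0.60 (adjusted p = 0.00617), ahead of *Sdhd*. The 4 genes that fell in that week were *Cox18*, *Atp5k*, *Uqcrq* and *Atp5d*, by 0.54, 0.43, 0.33 and 0.29. *Cox18*, which inserts the Cox2 subunit into the membrane, read 9.91, 10.48 and 10.09 at P1 and 9.62, 9.72 and 9.53 at P7, with no overlap. From P7 to P14 the highest steps were those of *Uqcrc2* and *Cox19*, both 0.40. *Cox6c*, a complex IV subunit, was highest at P7, with 14.11, 14.21 and 14.33 at P1, 14.66, 14.71 and 14.53 at P7 and 14.39, 13.99 and 14.39 at P14. It rose by 0.41 and then fell by 0.38 (adjusted p = 0.00801), the 1 gene that passed as lower from P7 to P14. *Sdhd* (-0.34) and *Cox4i1* (-0.21) were lower at an unadjusted p under 0.05 in that step.

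At P30 a few genes left the level of the ages around them, in both genotypes. *Atp5a1* read 12.87, 13.13 and 12.89 at P14, 12.20, 12.27 and 12.14 at P30 and 13.08, 12.84 and 12.93 at P60 in the control. The P30 arrays lay below all arrays of both neighbouring ages, with steps of -0.76 (adjusted p = 5.29e-05) and 0.74 (adjusted p = 1.54e-04). In the KO it read 13.18, 13.05 and 13.14, then 12.28, 12.39 and 12.61, then 13.17, 12.91 and 13.02, and the steps were -0.70 and 0.60. *Cox14* also passed in all 4 steps, with -0.22 and 0.30 in the control and -0.24 and 0.37 in the KO. The fall of *Cox14* did not pass in the control under median scaling, with normexp or in the authors' table (adjusted p from 0.0604 to 0.103), nor in the KO under median scaling or with normexp (0.0536 and 0.0616), and the control rise did not pass under median scaling (0.0620). *Cox7b*, a small complex IV subunit, read 10.97, 10.78 and 10.68 at P14, 9.99, 9.99 and 10.01 at P30 and 10.66, 10.46 and 11.17 at P60 in the control. Its steps were -0.81 (adjusted p = 0.00155) and 0.77 (adjusted p = 0.00453), and in the KO the fall did not pass (-0.44) while the rise was 0.98.

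In the control *Uqcrq* fell by 0.77 from P14 to P30 (adjusted p = 1.51e-05), from 8.13, 8.25 and 8.20 to 7.67, 7.43 and 7.18. It regained 0.35 by P60, which did not pass under median scaling (0.28, adjusted p = 0.107). In the KO *Uqcrq* fell by 0.38, and its mean was 7.62 at P30 and 7.59 at P60. *Atp5k* showed the opposite pattern to *Uqcrq* in the control, with 7.97, 7.71 and 7.68 at P14, 8.32, 7.92 and 8.23 at P30 and 7.93, 7.69 and 7.74 at P60. Single arrays overlapped, and the steps were 0.37 and -0.37 in the control and 0.45 and -0.41 in the KO. *Sdhb* was the other gene to rise from P14 to P30 in the control, by 0.36, and in the KO it rose by 0.38 beside *Atp5k*, *Atp5g2*, *Atp5pb* and *Cox4i1*. Lower at P30 than at P14 and P60 in both genotypes were 1.74% of all probes, and 1.88% were higher. From P30 to P60 *Atp5k*, *Cox6c*, *Cox7a2l*, *Atp5o* and *Cox4i1* fell in the control, by 0.25 to 0.37. Chip and scan labels were not analysed here, and whether arrays of an age were handled together was not tested.

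**Figure D3:**
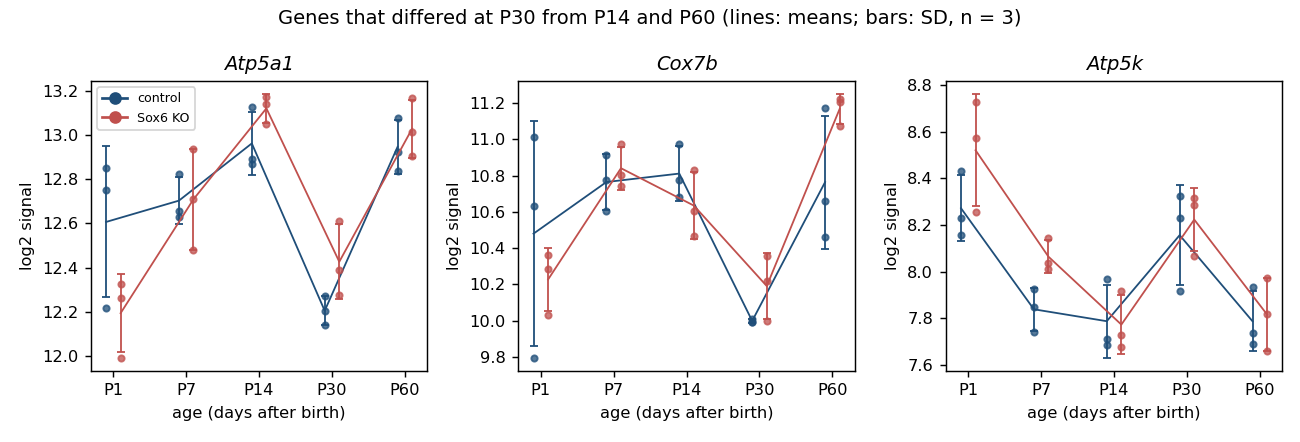
Log2 signal (vertical axis) against age (horizontal axis) of *Atp5a1*, *Cox7b* and *Atp5k* in control (blue) and Sox6 KO (red) ventricle, with points for single arrays, lines through the means and bars for the SD (n = 3). The control P30 arrays of *Atp5a1* (12.14 to 12.27) and *Cox7b* (9.99 to 10.01) lie below those of P14 and P60, and those of *Atp5k* overlap with both.

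In the Sox6 KO ventricle 28 of the 41 genes were higher and 4 lower at P60 than at P1 (29.9% and 28.6% of all probes), with a median log2 change of 0.35. Median scaling gave 19 higher and 9 lower, and a median of 0.18. The median over all probes was 0.006 under quantile normalization and 0.14 under median scaling. The highest rises were those of *Uqcrc1*, from 12.79, 12.45 and 12.66 to 13.81, 13.79 and 13.79, and of *Cox14*, from 11.69, 11.65 and 11.57 to 12.81, 12.69 and 12.81. Neither gene's ages overlapped, and the changes were 1.16 and 1.14, or 2.24-fold and 2.20-fold. The genes that fell were *Atp5k*, *Uqcrq*, *Cox20* and *Cox15*, by 0.70, 0.56, 0.44 and 0.22. By step, 16 genes were higher and 1 lower from P1 to P7 (12.5% and 13.3%), 10 and 4 from P7 to P14 (13.7% and 13.4%), 5 and 4 from P14 to P30 (18.7% and 18%), and 4 and 3 from P30 to P60 (9.31% and 8.83%). Median scaling turned the split of P7 to P14 to 2 and 12, of P14 to P30 to 11 and 3, and of P30 to P60 to 4 and 5. Without KO P14 replicate 1 the P14 to P30 count of 9 became 4.

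Between the genotypes, *Atp5g2* was higher in the Sox6 KO at every age. *Atp5g2* encodes the same mature subunit c as *Atp5g3*, behind another import sequence. In the control it read 10.83, 11.23 and 10.96 at P1, 10.65, 10.95 and 10.74 at P7, and 10.93, 10.83 and 10.78 at P14. The later control arrays read 10.97, 10.83 and 10.97 at P30 and 11.08, 10.96 and 11.19 at P60. All 15 control arrays thus lay between 10.65 and 11.23. In the KO it read 11.46, 11.47 and 11.72 at P1, 11.69, 11.60 and 11.74 at P7, and 11.39, 11.49 and 11.61 at P14. The KO arrays read 11.82, 11.83 and 11.75 at P30 and 11.82, 11.91 and 11.81 at P60. The lowest KO array, at 11.39, was above the highest control array of any age.

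The log2 differences of *Atp5g2* were 0.54 at P1 (0.35 to 0.73, adjusted p = 1.82e-04), 0.90 at P7 (0.71 to 1.09, adjusted p = 2.06e-07) and 0.65 at P14 (0.46 to 0.84, adjusted p = 5.38e-05). At P30 and P60 they were 0.88 (0.69 to 1.07, adjusted p = 3.65e-07) and 0.77 (0.58 to 0.96, adjusted p = 2.82e-06). In folds these were 1.46, 1.87, 1.57, 1.84 and 1.71. The F test for a genotype difference that varies with age did not pass (adjusted p = 0.186). At each age 41 other settings were run, but most of them left out 1 array of another age. Such an omission leaves the difference itself unchanged and alters only the shared spread. *Atp5g2* passed in all 41 at P7, P14, P30 and P60 and in 39 at P1. There a fit on the P1 groups alone gave an adjusted p of 0.0756, and one without replicate 3 of every group 0.0504. With each of the 6 arrays of the compared groups left out in turn, *Atp5g2* kept its call at every age. *Atp5g2* was one of 57 probes of 17997 (0.317%) that were higher in the KO at all 5 ages, and 10 (0.0556%) were lower at all ages. No other gene of complexes II to V passed at more than 1 age.

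**Figure D4:**
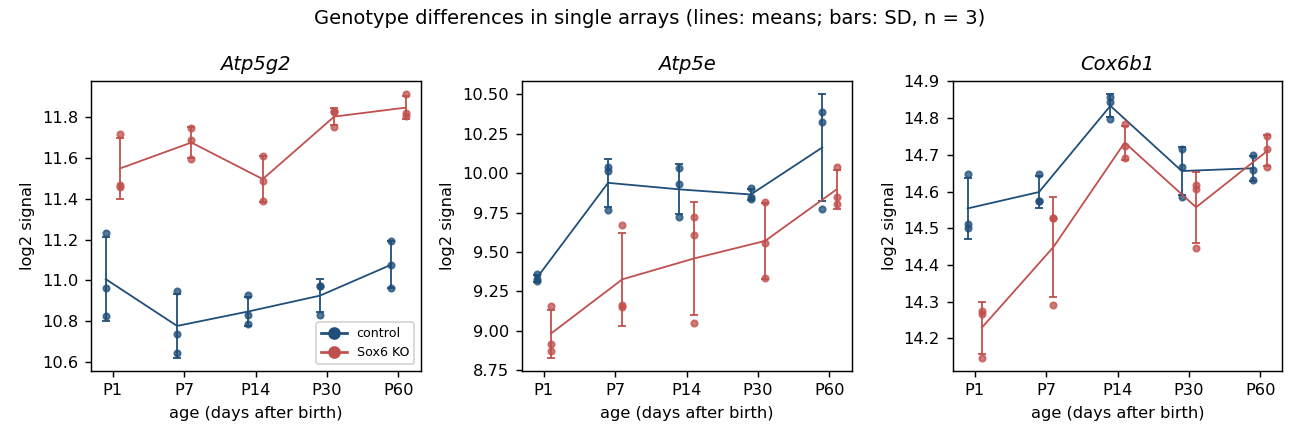
Log2 signal (vertical axis) against age (horizontal axis) of *Atp5g2*, *Atp5e* and *Cox6b1* in control (blue) and Sox6 KO (red) ventricle, with points for single arrays, lines through the means and bars for the SD (n = 3). The KO arrays of *Atp5g2* (11.39 to 11.91) lie above all control arrays (10.65 to 11.23), and *Cox6b1* is lower in the KO at P1, by 0.32.

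*Atp5g3* did not pass between the genotypes at any age. It read 15.55, 15.35 and 15.44 in the KO at P1, below all control arrays of that age, and 15.55, 15.57 and 15.58 at P60, above all control arrays. At P1 the genotypes differed more widely than later. Of the 41 genes 2 were higher and 9 lower in the KO at P1 (8.82% and 7.91% of all probes), and the median log2 difference was -0.12 against -0.01 over all probes. At P7, P14, P30 and P60 the median lay between -0.03 and 0.02.

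*Uqcrc1* read 12.83, 13.35 and 13.08 in the control at P1 and 12.79, 12.45 and 12.66 in the KO. Its arrays did not overlap and it was lower by 0.46 on the log2 scale (-0.65 to -0.26, adjusted p = 0.00156). *Cox6b1*, the subunit facing cytochrome c, read 14.65, 14.50 and 14.51 against 14.27, 14.15 and 14.27. *Cox5a*, another complex IV subunit, read 14.61, 14.78 and 14.73 against 14.49, 14.33 and 14.31, and *Uqcr11* of complex III 14.55, 14.42 and 14.48 against 14.07, 14.23 and 14.15. These 3 genes had no overlap either, with differences of -0.32 (adjusted p = 0.00114), -0.33 (adjusted p = 0.00152) and -0.33 (adjusted p = 0.00208). *Uqcrc1*, *Cox6b1*, *Cox5a* and *Uqcr11* kept their calls with each of the 6 P1 arrays left out in turn.

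The other 5 genes lower at P1 overlapped between the genotypes. *Atp5d*, the delta subunit of the F1 head, read 12.56, 13.21 and 12.92 against 12.58, 12.43 and 12.42, a difference of -0.42 (adjusted p = 0.00728). *Atp5a1* read 12.22, 12.85 and 12.75 against 12.32, 11.99 and 12.26, a difference of -0.41 (adjusted p = 0.0282), and *Uqcrq* 8.64, 8.54 and 8.38 against 8.44, 8.10 and 7.91, a difference of -0.37 (adjusted p = 0.0308). In *Atp5d* and *Atp5a1* it was control replicate 1 that lay among the KO arrays. *Cox18* and *Sdhb* were lower by 0.35 (adjusted p = 0.0427) and by 0.30 (adjusted p = 0.0348), and each of these 5 genes lost its call with at least 1 P1 array left out. Besides *Atp5g2*, *Cox5b* was higher in the KO at P1, with 14.69, 14.59 and 14.54 against 14.32, 14.41 and 14.29, no overlap and a difference of 0.26 (adjusted p = 0.0111), and it lost its call without either of 2 single arrays.

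The P1 count rested on few arrays. It was 14 without control P1 replicate 1, 6 without control P1 replicate 2, 7 without control P1 replicate 3, and 0 where the P1 groups alone were fitted, with 15 genes at an unadjusted p under 0.05 in that fit. Control P1 replicate 1 was the lowest of its group in 22 of the 41 genes. Its 2 atrial markers, *Myl4* and the fetal type gene *Nppa*, summed to 16.19, near the KO arrays (16.25 to 16.33) and above the other control arrays (14.87 and 15.14). Both markers were higher in the KO at an unadjusted p under 0.05 (limma), while neither passed after adjustment. The skeletal muscle marker *Myl1* was higher in the KO by 1.15 (adjusted p = 7.40e-04), with 11.65 to 12.35 in the control and 12.85 to 13.24 in the KO. Ventricular markers were lower in the KO in 3 of 7 (summed 17.59 to 17.78 in the control and 17.46 to 17.59 in the KO), fibroblast markers in 2 of 5 (13.44 to 13.73 and 13.08 to 13.47) and the brown adipocyte markers in 1 of 2, *Cidea* (13.67 to 13.77 and 13.40 to 13.57). The part of these markers in the P1 differences was not tested.

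After P1 few genes of the complexes differed between the genotypes besides *Atp5g2*. At P7 there was 1 higher and 1 lower (3.02% and 2.38% of all probes), the lower being *Atp5e*, with 9.77, 10.04 and 10.01 in the control and 9.15, 9.16 and 9.67 in the KO. The arrays did not overlap and *Atp5e* was lower by 0.61 on the log2 scale (-0.94 to -0.28, adjusted p = 0.0196). It was lower in the KO at all 5 ages, with no overlap at 4 of them, and passed only at P7, where the call was lost without control P7 replicate 2, control P7 replicate 3, KO P7 replicate 1 or KO P7 replicate 2 (adjusted p from 0.0808 to 0.121). At P14 and at P30 1 gene was higher and none lower (1.47% and 1.13% of all probes at P14, 3.16% and 3.69% at P30), and limma's unadjusted p was under 0.05 for 6 genes that were lower at P14 and 1 at P30. At P60 *Cox11* was lower, with 8.29, 8.13 and 8.29 in the control and 8.04, 7.55 and 8.05 in the KO, by 0.36 (adjusted p = 0.0423), where 1 gene was higher and 1 lower (2.13% and 2.39% of all probes). *Cox11* lost its call without control P60 replicate 1, control P60 replicate 3 or KO P60 replicate 2. Median scaling gave 1 higher and 1 lower at P14 and at P30.

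**Figure D5:**
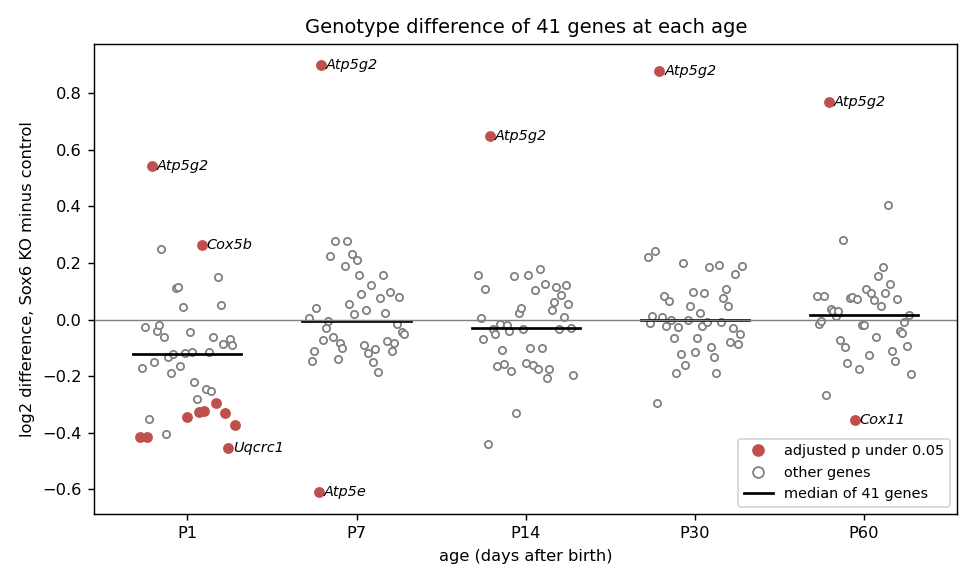
Log2 difference between Sox6 KO and control (vertical axis) of each of the 41 genes at the 5 ages (horizontal axis), with red points at an adjusted p under 0.05 and black lines at the median of the genes. *Atp5g2* is the highest point at every age (0.54 to 0.90), and the median is -0.12 at P1 and between -0.03 and 0.02 afterwards.

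The change from P1 to P60 differed between the genotypes in 4 genes, 3 with a larger gain in the KO and 1 with a smaller one (4.32% and 5.13% of all probes). *Cox6b1* gained 0.48 in the KO, to 14.67, 14.71 and 14.75 at P60, and 0.11 in the control, to 14.63, 14.70 and 14.66. The difference of these gains was 0.37 (0.18 to 0.56, adjusted p = 0.0126), and the P60 arrays overlapped. *Uqcrc1* gained 0.45 more in the KO (adjusted p = 0.0371), again from a lower start to an overlapping P60 level. *Atp5d* changed by 0.25 in the KO (-0.16 under median scaling) and -0.24 in the control, a difference of 0.50 (adjusted p = 0.0344), and reached 12.88, 12.70 and 12.62 in the KO and 12.76, 12.53 and 12.66 in the control at P60. *Cox11* changed by -0.22 in the KO and 0.25 in the control, a difference of -0.47 (adjusted p = 0.0387), on a probe within 1.29 times the background limit. Over all ages the genotype difference varied in the F test for *Cox11* (adjusted p = 0.00756), *Uqcrc1* (0.0124) and *Atp5d* (0.0232), 3 of 41 genes with 13.8% of all probes. *Cox6b1* kept its call with each of the 12 arrays left out in turn, and the other 3 genes each lost theirs with several of them. Without control P1 replicate 2 or without control P1 replicate 3 the count over P1 to P60 was 1, and without control P1 replicate 1 it was 10. It was 1 without KO P1 replicate 2, and 2 without KO P1 replicate 3, KO P60 replicate 1 or KO P60 replicate 2. The F test passed in 8 genes without control P1 replicate 1, in 1 without control P1 replicate 2 or KO P1 replicate 2, and in 5 without KO P1 replicate 1. Median scaling left 1 gene in the test over P1 to P60, *Cox11*, with a smaller gain in the KO (adjusted p = 0.0483). *Cox6b1* did not pass under median scaling (adjusted p = 0.0521) or with normexp (adjusted p = 0.0815). It also did not pass with only the groups compared in the fit or without replicate 2 of every group.

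The other genes of oxidative metabolism were counted in the same fits, by lists. Of 33 complex I subunits 29 were higher and 0 lower in the control at P60 (0 lower also at an unadjusted p under 0.05, limma), with a median log2 change of 0.53, and the highest were *Ndufa4* (0.99) and *Ndufa5* (0.90), the lowest of those that passed *Ndufb8* (0.22) and *Ndufb7* (0.25). *Ndufa4* was counted there by its symbol, and its protein is also known as a subunit of cytochrome c oxidase. Of 16 genes of fatty acid oxidation 13 were higher and 1 lower (median 0.62), from *Decr1* (1.59) and *Acadm* (1.22) to *Etfdh* (0.25) and *Acadl* (-0.38). Of 12 TCA cycle genes 8 were higher and 2 lower (median 0.50), with *Ogdh* (2.03) and *Idh3a* (0.91) at the top and *Idh3b* (-1.10) and *Mdh2* (-0.34) at the bottom. Under quantile normalization the median of the genes of complexes II to V, 0.15, lay below those of these 3 lists. The medians of the lists under median scaling were not computed, and the difference between the lists was not tested.

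Of 68 genes of the mitochondrial ribosome 30 were higher and 12 lower at P60, from *Mrpl14* (1.01) and *Mrpl49* (0.96) to *Mrpl54* (-0.61) and *Mrpl52* (-0.74). Of 19 further assembly factors 10 were higher and 3 lower, led by *Uqcc1* of complex III (0.95) and *Sdhaf3* of complex II (0.91), with *Pet100* (-0.31) and *Oxa1l* (-0.69) at the bottom. Cytochrome c and the carriers and partners of ATP synthase gave 3 higher and 3 lower of 8, with *Ckmt2*, the mitochondrial creatine kinase of muscle, up by 2.99 and *Vdac1* by 0.61, *Vdac2* at -0.55 and *Atpif1*, the inhibitor of ATP synthase, at -0.73. Of 11 regulators of mitochondrial genes 6 were higher and 1 lower, with *Esrrb* (1.29) and *Esrrg* (0.98), nuclear receptors of the ERR family, at the top, *Polrmt* at 0.39 and *Nrf1*, which binds the NRF-1 letters above, at -0.42. The 5 measured isoforms left out by the rule gave 3 higher and 2 lower.

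At P1 more genes were lower than higher in the KO in several of these lists, where 8.82% of all probes were higher and 7.91% lower. Fatty acid oxidation had 0 higher and 12 lower of 16 with a median of -0.65, complex I 0 and 8 of 33 (-0.18), the further assembly factors 0 and 6 of 19 (-0.21), the mitochondrial ribosome 4 and 13 of 68 (-0.08) and the TCA cycle 0 and 2 of 12 (-0.09). Cytochrome c and the partners of ATP synthase had 0 and 2 of 8, the isoforms left out by the rule 0 and 2 of 5, and the regulators 1 and 1 of 11 (0.02). At an unadjusted p under 0.05 (limma), 1 further assembly factor was higher, and 0 genes of complex I, fatty acid oxidation, the TCA cycle, the partners of ATP synthase or the isoforms left out were. Set beside these, the genes of complexes II to V had 2 and 9 of 41 (-0.12). The change from P1 to P60 was larger in the KO for 10 of 16 genes of fatty acid oxidation for 4 of 33 complex I subunits and for 8 of 68 genes of the mitochondrial ribosome, where 4.32% of all probes had a larger change in the KO.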

How the data were processed

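Total RNA of cardiac ventricle was hybridized to Illumina MouseWG-6 v2.0 BeadChips. The authors deposited signal intensity values before normalization (46255 rows, of which 974 are control rows) and a table of 6784 filtered probes, which was found to be their quantile normalized intensity. For the latter the study used limma, used a limit of 2 SD over the negative controls' mean, and chose 1 probe per gene. The study also removed probes that match the genome badly and those missing at an age. Here the deposited intensity was filtered on the same limit but less strictly, keeping probes above it on all 3 arrays of at least 1 group (17997 probes), and was quantile normalized, log2 transformed and fitted in limma 3.58.1 with 1 mean for each of the 10 groups, without other terms (20 residual and 6.72 prior degrees of freedom). Two-sided moderated tests were adjusted over all probes by the Benjamini-Hochberg method. The negative controls were taken from the range of their identifiers, since detection p columns were empty. Gene names came from the platform annotation, which names 6074 of the 6784 probes with 1 symbol, 3 with several and leaves 707 unlisted, so that only probes of the authors' table were named. Named genes were the 8 highest and 8 lowest in the control from P1 to P60, the 2 highest and lowest per step, the 4 highest and lowest between genotypes, all of complex II, the subunit c and *Cox4* genes, and those passing the interaction test, each among genes at an adjusted p under 0.05. From the lists the 2 highest and 2 lowest were named. The genes, lists and rules were chosen with earlier results of these data known, and no test was made over a list. The study calls the arrays of a group biological replicates. Alternatives were median scaling, normexp background correction (offset 16), the authors' table, other detection filters, only the groups compared, a replicate block, array weights, another probe choice and leaving out arrays. The fit was tested on simulated data. Array number limits the precision.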

Additional observations from a re-analysis of the deposited data

Results flagged for a closer look

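The change from P1 to P60 differed between the genotypes by limma's interaction test in 4 genes of complexes II to V. The log2 change in the KO minus that in the control was 0.45 for *Uqcrc1*, 0.37 for *Cox6b1*, 0.50 for *Atp5d* and -0.47 for *Cox11*. In the F test for genotype differences that vary over the 5 ages the adjusted p was 0.0124 for *Uqcrc1*, 0.00756 for *Cox11* and 0.0232 for *Atp5d*. *Cox6b1* kept its call in all single-array omissions, and the other 3 genes lost theirs in 7 to 9 of 12. *Cox6b1* did not pass the interaction test under median scaling (adjusted p = 0.0521) or with normexp (adjusted p = 0.0815). It also did not pass with only the groups compared in the fit or without replicate 2 of every group. Single outlying arrays within groups of 3 were not tested.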

How the results depend on the processing

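All 43 single-gene calls from control P1 to P60, between the genotypes and in the interaction test were recomputed under each alternative. Of the 559 results 2 changed sign, *Sdhb* (-0.023) and *Atp5pb* (-0.029) from P1 to P60 under median scaling. Another 43 of the 559 could not differ, since the other probe choice picked the same probe for all 41 genes. In 121 of the 559 the direction held and the adjusted p no longer passed. This was most often so without replicate 3 of every group (20), with only the groups compared (19) and without replicate 2 of every group (17). Leaving out the single array whose omission gave the smallest change followed (15), and then normexp (14). Over 168 gene calls in the 16 comparisons median scaling turned 7 and the other scalings 0. Median scaling moved the median of all probes from P1 to P60 to 0.15 in the control and 0.14 in the KO. The median of the 41 genes became 0.060 in the control and 0.18 in the KO. It also gave counts of 14 (control P14 to P30), 8 (control P30 to P60), 11 (KO P1 to P7), 14 (KO P14 to P30), 2 (genotypes at P14), 2 (at P30) and 1 (interaction). With normexp the counts were 8, 6, 5 and 7 in the 4 control steps, 8 and 5 for the KO steps P7 to P14 and P14 to P30, 6 at P1, 1 at P60, 0 in the interaction test (7 at an unadjusted p under 0.05 in limma) and 1 in its F test. The authors' table gave 5 from P14 to P30. No detection filter gave 7 at P1, 1 at P60 and 1 in the interaction. Only the groups compared gave 0 at P1 (15 unadjusted), 1 at P60 and 0 in the interaction (9 unadjusted), with fewer residual degrees of freedom by construction. Array weights gave 2 at P14, 1 at P60, 8 in the interaction and 8 in its F test. The cause of the other shifts was not tested.

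With arrays left out, the counts ranged from 4 to 17 (control P1 to P7), 3 to 11 (P7 to P14), 4 to 6 (P14 to P30) and 3 to 14 (P30 to P60), and in the KO from 7 to 17, 6 to 11 and 4 to 8 in the steps up to P30. Between the genotypes they ranged from 1 to 15 at P1, 1 to 2 at P7 and 1 to 2 at P60, and from 0 to 10 in the interaction and 0 to 8 in its F test. The control median from P1 to P60 ranged from 0.11 to 0.24. Counts from P1 to P60 ranged from 18 to 22 in the control and 26 to 31 in the KO.

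Deviations of same-numbered control and KO arrays of an age correlated above 0.1 in 1 of 15 pairs, with values from -0.23 to 0.11. At P1 the values were -0.23, -0.15 and -0.11. Same-numbered arrays of different ages were not compared, so these values cannot show whether they shared a batch. With the replicate number as a block the counts were 22 (control P1 to P60), 32 (KO P1 to P60), 11 (P1), 2 (P7) and 5 (interaction), and all 43 calls kept their side. The chip as a block was not run, since chip labels were not analysed here. Dim probes (*Cox4i2*, *Uqcrq*, *Cox11*, *Atp5k*) lay close to the background limit.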
